A study of Mus musculus with 18 samples.

Results

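Lewis lung carcinoma cells of the LLC1 line, a mouse lung cancer line, were compared after growth with wound fibroblasts that lacked Prrx1 and after growth alone. The comparison held 6 of the 18 RNA-seq libraries of the series, 3 labelled LLC1 alone and 3 labelled LLC1 with sgPrrx1 fibroblasts, and libraries were assigned to the groups by their labels. The fibroblasts came from dorsal skin wounds of mice at day 10 after wounding and, in the sgPrrx1 group, carried a CRISPR/Cas9 deletion of Prrx1, a homeobox transcription factor gene. The LLC1 cells themselves carried a GFP tag and no deletion in any group. Cancer cells and fibroblasts were mixed at 1:3 in hanging drops and then kept as suspended spheroids. The GFP-positive cancer cells were then sorted and their RNA was sequenced, as the study states. A further 3 libraries of LLC1 cells grown with WT wound fibroblasts, the control that the study calls sgNS, served as the reference for the deletion. The question put by these groups was which LLC1 transcripts differ when fibroblasts are present, and which of those differences are altered when the fibroblasts lack Prrx1. No label said that the replicates of a group were separate cultures, so the p-values below measure the spread between these libraries, which may be technical.

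Fibroblasts in a tumour or a wound lay down collagen and other matrix and release growth factors, cytokines and matrix proteases that act on neighbouring cells. Cells in contact with them respond through immediate early genes, which are transcribed within minutes of a growth or stress signal, through Notch receptors, which are switched on by ligands on a touching cell, and through TGF-beta and BMP receptors. Prrx1 is known as a factor of mesenchymal cells that regulates matrix genes in fibroblasts. Because the deletion was made in the fibroblasts, the Prrx1 count in the sorted cancer cells did not check the labels. Prrx1 stood at 212, 227 and 179 CPM (counts per megaread of TMM-scaled library size) in cells grown alone and at 204, 215 and 114 with sgPrrx1 fibroblasts, and it did not pass the test, with a log2 fold change of -0.21 (adjusted p = 0.57), or 0.034 (adjusted p = 0.814) without the third sgPrrx1 library.

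The third sgPrrx1 library stood apart from the other 8 LLC1 libraries, and results are therefore given with and without it. A log2 fold change, SE or adjusted p followed by square brackets is from the fit of all 9 LLC1 libraries, and the value in brackets is from the fit without the third sgPrrx1 library. A blocked adjusted p is the adjusted p against cells alone once a block for replicate number enters the 9-library fit, and it is given for each named gene whose call the block ended. The third sgPrrx1 library held the lowest total, 66129117 counts, against up to 103997557, and its TMM factor was 0.883 against 0.996 to 1.03. On the first principal component, which held 39.6% of the variance, it lay at 95.4, whereas the other 8 libraries lay between -25.6 and -1.02. Its deviation from the other sgPrrx1 libraries ran with transcript length (Spearman's rho across genes -0.669). Genes in the tenth with the shortest transcripts, of median length 930 bases, were higher in it by a median of 0.81 on the log2 scale, and genes in the tenth with the longest, of median length 7646 bases, had a median difference of -0.99. The third library of cells grown alone showed the same kind of relation over a smaller range (rho -0.647, medians from 0.20 to -0.32). So did the third WT library (rho -0.467, medians from 0.12 to -0.16). The part of transcript length in each gene's result was not tested, and the values below can be read against the fit without that library, in which the median log2 fold change of each of these length classes lay between -0.03 and 0.01.

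**Figure D1:**
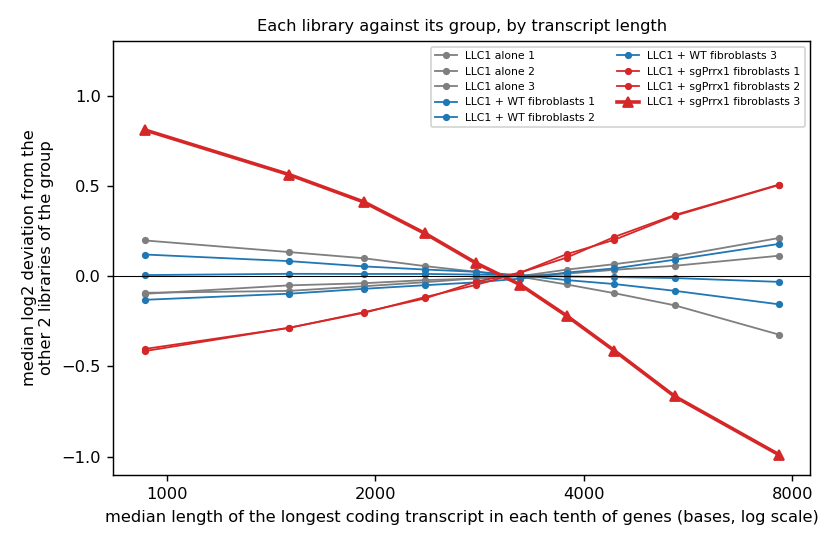
Median log2 deviation of each LLC1 library from the other 2 libraries of its group (y axis), in equal classes of genes by transcript length (x axis, median length of each class in bases, log scale). The third sgPrrx1 library falls from 0.81 to -0.99, and the third library of cells grown alone falls from 0.20 to -0.32.

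With all 9 LLC1 libraries in the fit (edgeR's quasi-likelihood test, Benjamini-Hochberg adjusted p under 0.05), 556 of 12873 genes tested differed between LLC1 cells with sgPrrx1 fibroblasts and LLC1 cells alone. Of these, 259 were higher (2.01% of the genes tested) and 297 lower (2.31%). With the third sgPrrx1 library left out, 3495 of 13088 genes differed, 1640 higher (12.5%) and 1855 lower (14.2%), and these held all of the 556 with the same sign. The count with all 9 libraries moved with nearly any change of libraries: it was 52, 54 and 74 without the first, the second or the third library of cells alone, 142, 151 and 210 without a WT library, and 159 and 168 without the first or second sgPrrx1 library. The biological coefficient of variation, the spread between replicates beyond counting error, was 0.228 with all 9 libraries and 0.112 without the third sgPrrx1 library. The split of higher against lower calls also moved with the method. Within edgeR, 51.7% of the calls were higher with RLE scaling and 45.6% with no scaling factors, against 46.6% with TMM. DESeq2, which changes the test as well as the scaling, called 1103 higher and 841 lower, and a fit with an offset for length and GC content called 1170 higher and 846 lower, so that the higher genes made up 56.7% and 58.0% of the calls. Most changes were small, with a median absolute log2 fold change of 0.64 among the 556 genes, and 119 genes passed the test with a change of at least 1 on the log2 scale, 80 higher and 39 lower.

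Angptl4 and Acsbg1, which act in lipid metabolism, were among the genes that rose most in LLC1 cells with sgPrrx1 fibroblasts. Angptl4, a secreted inhibitor of lipoprotein lipase, stood at 1.85, 1.94 and 1.89 CPM alone and at 17.1, 16.5 and 27.2 CPM with sgPrrx1 fibroblasts. The fold was 10.7 (log2 fold change 3.42 [3.16], SE 0.21 [0.07], adjusted p = 0.000285 [3.62e-07]). Angptl4 lies on chromosome 17, at chr17:33774900-33781575 of GRCm38. Acsbg1, an acyl-CoA synthetase that activates long-chain fatty acids, was barely detected alone, at 0.0749, 0.0368 and 0.141 CPM, and reached 2.53, 2.04 and 2.93 CPM with the fibroblasts (log2 fold change 4.87 [4.75], SE 0.38 [0.35], adjusted p = 0.00104 [0.000132]). The level with sgPrrx1 fibroblasts was close to that with WT fibroblasts for both genes: the difference between the cocultures did not pass the test in either fit, and Angptl4 stood at 17.2, 16.8 and 18.8 CPM and Acsbg1 at 2.83, 2.16 and 2.35 CPM with WT fibroblasts.

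Of the 3 proliferin genes tested of 5 listed, which encode secreted prolactin-like glycoproteins, Prl2c2 and Prl2c4 rose, against 2.01% higher over all genes. Prl2c2 was at 1.02, 0.675 and 1.03 CPM alone and at 6.65, 6.91 and 7.995 CPM with sgPrrx1 fibroblasts, a fold of 7.91 (adjusted p = 0.000481 [5.29e-05]). Prl2c4 had 1 count in the 3 libraries of cells alone and 769 counts in the 3 sgPrrx1 libraries, a ratio of 738 after scaling with an exact counting interval of 132 to 29172, which covers counting error only. The WT cocultures held 7.42, 6.67 and 8.56 CPM of Prl2c2 and 3.03, 2.44 and 3.55 CPM of Prl2c4, so that both genes had overlapping levels with the 2 kinds of fibroblast. The proliferin genes are near-identical copies and the way reads shared between them were counted is not stated, so the split between copies is uncertain.

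Several secreted proteins were also among the rises named by rule. Dcn, a small proteoglycan that binds collagen fibrils, was at 2.10, 2.65 and 3.81 CPM alone and at 21.5, 20.6 and 22.3 CPM with sgPrrx1 fibroblasts (log2 fold change 2.91 [2.89], SE 0.21 [0.20], adjusted p = 0.000794 [8.46e-05]). Col7a1, the collagen of anchoring fibrils, was at 1.78, 1.83 and 1.87 CPM alone and at 8.53, 8.25 and 5.55 CPM in coculture (log2 fold change 2.03 [2.20], adjusted p = 0.00157 [9.97e-06]). Ccbe1, a secreted protein needed for growth of lymphatic vessels, went from 13.04, 15.3 and 12.3 CPM to 64.0, 63.1 and 33.5 CPM (log2 fold change 1.98 [2.24], adjusted p = 0.0072 [1.16e-05]). Non-overlap with the cells alone was a condition for naming these genes, so it is no separate result. Inhba, which encodes the activin A subunit, was at 0.824, 0.688 and 0.423 CPM alone and at 3.19, 2.93 and 1.08 CPM with sgPrrx1 fibroblasts (adjusted p = 0.0411 [0.000396], blocked adjusted p = 0.0525). The remaining rises named by rule were U90926, Atoh8, Rab15, Prss22, Plet1 and Tmem266, with log2 fold changes from 1.86 to 2.58. Atoh8 encodes a basic helix-loop-helix transcription factor and Rab15 a small GTPase of endosome traffic. Prss22, a serine protease gene, was past the threshold without the block (adjusted p = 0.03 [0.00565], blocked adjusted p = 0.0537).

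**Figure D2:**
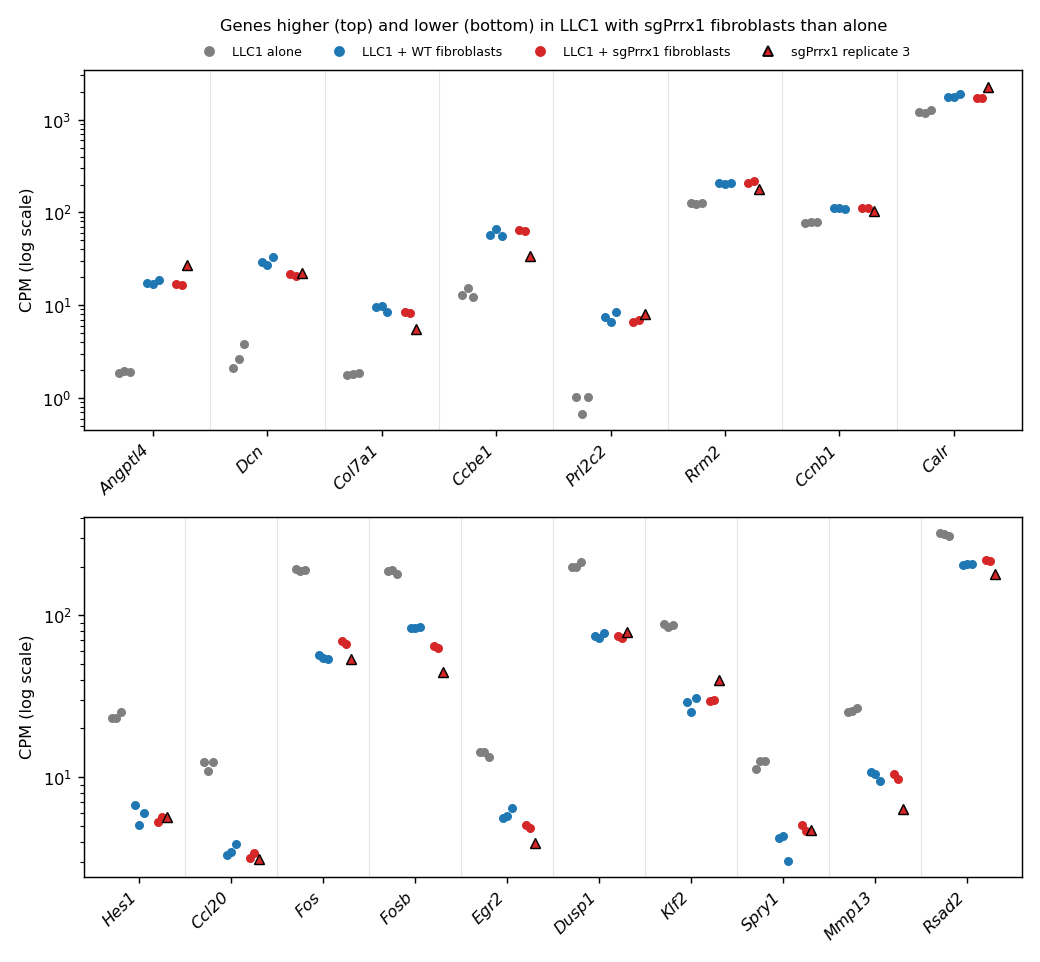
Level of selected genes in each LLC1 library in CPM on a log axis, with genes that rose in the upper panel and genes that fell in the lower panel. Gray points are cells alone, blue points cells with WT fibroblasts and red points cells with sgPrrx1 fibroblasts, with the third sgPrrx1 library as a black-edged triangle. For Angptl4 the 3 sgPrrx1 libraries sit between 16.5 and 27.2 CPM and the cells alone between 1.85 and 1.94, and for Hes1 they sit between 5.25 and 5.66 CPM against 23.1 to 25.3.

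Hes1 and Ccl20 had the largest falls among the genes named by rule, and several immediate early genes were among the rest. Hes1, a transcriptional repressor and the best known target of Notch receptors, stood at 23.3, 23.1 and 25.3 CPM in cells alone, at 6.77, 5.03 and 6.04 CPM with WT fibroblasts and at 5.25, 5.66 and 5.65 CPM with sgPrrx1 fibroblasts. The level was lower with sgPrrx1 fibroblasts by a factor of 4.32 (log2 fold change -2.11 [-2.12], SE 0.13 [0.12], adjusted p = 0.000285 [4.08e-05]). Hes1 lies at chr16:30065357-30067796 of GRCm38. Ccl20, a chemokine that draws CCR6-bearing lymphocytes and dendritic cells, was at 12.4, 11.0 and 12.5 CPM alone and at 3.16, 3.42 and 3.13 CPM with sgPrrx1 fibroblasts (log2 fold change -1.89 [-1.86], SE 0.11 [0.11], adjusted p = 0.000285 [4.29e-05]). Mmp13, a collagenase, was at 25.3, 25.6 and 26.8 CPM alone and at 10.5, 9.75 and 6.33 CPM in coculture (log2 fold change -1.54 [-1.34], adjusted p = 0.00625 [4.08e-05]). The other falls named by rule outside the immediate early group were Btn1a1, P2rx3, Nedd9, S100a7a and Bzrap1, with log2 fold changes from -1.74 to -1.36.

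Many immediate early genes fell. Of 38 tested, which were all those listed, 16 were lower with sgPrrx1 fibroblasts and 0 higher, against 2.31% lower over all genes, and their median log2 fold change was -0.54 against -0.01 over all genes. In the fit without the third sgPrrx1 library, 26 were lower and 3 higher, against 14.2% and 12.5%. The list was drawn up with earlier results of these data known, so its count is a description of these genes. By role, with all libraries, 4 of 8 AP-1 genes, 5 of 12 other transcription factor genes (zinc finger and nuclear receptor factors, Myc and Srf), 6 of 13 feedback inhibitors and 1 of 5 secreted products were lower.

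Among the AP-1 genes, whose products pair to form the AP-1 transcription factor, Fos was at 194, 189 and 192 CPM alone and at 69.0, 66.9 and 53.4 CPM with sgPrrx1 fibroblasts (log2 fold change -1.60 [-1.49], SE 0.11 [0.05], adjusted p = 0.000633 [3e-06]). Fosb was at 187, 192 and 179 CPM alone and at 64.8, 63.2 and 44.8 CPM with sgPrrx1 fibroblasts (log2 fold change -1.69 [-1.53], SE 0.14 [0.05], adjusted p = 0.00147 [1.3e-06]). Jun went from 506, 496 and 515 CPM to 274, 272 and 263 CPM (adjusted p = 0.00157 [6.4e-05]), and Atf3 from 85.4, 76.0 and 84.9 CPM to 33.3, 32.7 and 47.99 CPM (adjusted p = 0.011 [2.89e-05]). In Jun and Atf3 the highest sgPrrx1 library lay below the lowest library of cells alone. For Fos and Fosb such non-overlap was a condition of being named. Among the DNA-binding factors, Egr2, Klf2, Klf4, Nr4a1 and Myc fell. Egr2, a zinc finger factor, was at 14.2, 14.2 and 13.3 CPM alone and at 5.05, 4.88 and 3.94 CPM in coculture (log2 fold change -1.59 [-1.48], adjusted p = 0.00104 [4.07e-05]). Klf2, a Krüppel-like factor, was at 88.6, 84.2 and 87.7 CPM and 29.8, 30.1 and 39.7 CPM (log2 fold change -1.39 [-1.53], adjusted p = 0.00301 [2.89e-05]). Egr1 stood at 139, 143 and 134 CPM alone and at 84.5, 81.4 and 36.7 CPM in coculture, and passed only without the third sgPrrx1 library (adjusted p = 0.0702 with it and 5.81e-05 without it). Myc stood at 905, 943 and 957 CPM alone and at 504, 496 and 581 CPM with sgPrrx1 fibroblasts (log2 fold change -0.83 [-0.90], adjusted p = 0.00619 [5.29e-05]).

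The 6 feedback inhibitors that fell act against the signals or messages that this group depends on. Dusp1, a phosphatase of MAP kinases, was at 200.2, 200.2 and 214 CPM alone and at 75.1, 72.4 and 79.4 CPM with sgPrrx1 fibroblasts (log2 fold change -1.44 [-1.47], SE 0.08 [0.06], adjusted p = 0.000285 [8.54e-06]). Spry1, an inhibitor of receptor tyrosine kinase signalling, went from 11.2, 12.6 and 12.7 CPM to 5.06, 4.62 and 4.71 CPM (log2 fold change -1.34 [-1.32], adjusted p = 0.00521 [0.000773]). Dusp2, Zfp36, Btg2 and Ier5 were the other feedback members that passed, with log2 fold changes from -0.66 to -0.40 (blocked adjusted p = 0.0623 for Dusp2 and 0.0516 for Zfp36). The secreted member that passed was Cyr61, a matricellular protein, at 414, 418 and 437 CPM alone and 256, 257 and 341 CPM in coculture (adjusted p = 0.042 [0.000183]). The members that were higher without the third sgPrrx1 library were Fosl2 and the epidermal growth factor receptor ligands Areg and Ereg, with log2 fold changes of 0.30, 0.31 and 0.38.

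The 250 bases before a RefSeq start of 4 of these genes are shown because the genes fell together and because promoters of this class often hold a cyclic AMP response element. Each sequence runs 5′ to 3′ on the strand of the gene in GRCm38.p6, from chr12:85473640-85473889 (plus strand) for Fos, chr7:19310046-19310295 (minus strand) for Fosb, chr10:67535249-67535498 (plus strand) for Egr2 and chr17:26508473-26508722 (minus strand) for Dusp1. Capitals mark TGACG, the short form of the element, read on either strand.
Fos: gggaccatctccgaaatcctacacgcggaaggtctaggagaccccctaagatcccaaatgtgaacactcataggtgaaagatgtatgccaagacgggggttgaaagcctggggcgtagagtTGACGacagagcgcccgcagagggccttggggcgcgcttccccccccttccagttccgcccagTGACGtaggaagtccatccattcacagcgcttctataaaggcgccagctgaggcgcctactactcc
Fosb: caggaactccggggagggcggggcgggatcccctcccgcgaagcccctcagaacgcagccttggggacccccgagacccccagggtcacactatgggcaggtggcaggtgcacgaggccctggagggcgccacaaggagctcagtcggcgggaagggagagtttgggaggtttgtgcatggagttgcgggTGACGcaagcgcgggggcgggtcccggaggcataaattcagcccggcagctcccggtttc
Egr2: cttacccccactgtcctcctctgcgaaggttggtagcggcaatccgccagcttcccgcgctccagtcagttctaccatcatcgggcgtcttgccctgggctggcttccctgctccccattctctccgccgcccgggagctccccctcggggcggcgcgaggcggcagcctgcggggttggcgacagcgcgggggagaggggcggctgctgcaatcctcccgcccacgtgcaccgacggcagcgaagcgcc
Dusp1: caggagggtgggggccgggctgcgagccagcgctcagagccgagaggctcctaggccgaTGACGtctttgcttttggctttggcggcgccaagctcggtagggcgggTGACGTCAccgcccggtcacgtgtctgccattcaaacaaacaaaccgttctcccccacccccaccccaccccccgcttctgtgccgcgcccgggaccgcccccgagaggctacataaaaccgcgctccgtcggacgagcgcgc

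The Fosb window overlaps the annotated span of the gene. In the Fos promoter TGACG lay 129 to 125 and 66 to 62 bases before the start, and in the Fosb promoter 60 to 56 bases before it. The Dusp1 promoter held it 191 to 187, 143 to 139 and 140 to 136 bases before the start, where the overlapping pair formed the full palindrome TGACGTCA. The Egr2 window held no match, which says only that these letters are not in it. Egr2 has 5 start entries, the first listed was used, and its window lies inside the annotated span of the gene. Over all 27025 genes with a RefSeq promoter of this length, 17.9% held TGACG and 1.62% held TGACGTCA. Of the 38 immediate early genes tested, 26 had a promoter entry, and 53.8% of these held TGACG and 11.5% TGACGTCA. The share with TGACG was 57.1% among the 14 fallen members with a promoter and 52.6% among the 19 that fell without the third sgPrrx1 library. Hes1 had no promoter entry.

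The Notch pathway list showed a fall in 2 direct targets and little else. Of 25 members tested of the 32 listed, Hes1 and Nrarp, a feedback inhibitor of Notch, were lower and 0 were higher, against 2.31% and 2.01% over all genes. Nrarp stood at 4.51, 4.75 and 4.68 CPM alone and at 2.71, 3.14 and 3.15 CPM with sgPrrx1 fibroblasts (adjusted p = 0.0433 [0.00999], blocked adjusted p = 0.0713), and under the block 1 member of the list passed. Without the third sgPrrx1 library, 6 were lower and 2 higher, against 14.2% and 12.5% over all genes, so that the higher share lay below the background. The receptor gene Notch3 went from 4.64, 4.41 and 4.50 CPM to 3.57, 2.93 and 2.12 CPM (log2 fold change -0.47, adjusted p = 0.0474 in that fit), and Psen2, Maml2 and Numbl fell with it. The list's median log2 fold change was -0.27 with all libraries and -0.10 without that library.

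Chemokines and cytokines moved both ways. Of 29 tested of the 39 listed with all libraries, 3 were higher and 6 lower, against 2.01% and 2.31% over all genes. With the third sgPrrx1 library left out, 6 of 30 were higher and 9 lower, against 12.5% and 14.2%. Il33, an alarmin of the interleukin 1 family, rose from 17.1, 18.9 and 17.7 CPM to 66.9, 66.3 and 44.2 CPM (log2 fold change 1.72 [1.90], adjusted p = 0.0023 [8.8e-07]). Il11 rose by 0.44 [0.46] and Csf3, the granulocyte growth factor gene, by 1.42 [1.06] on the log2 scale (adjusted p = 0.0334 [0.00344] and 0.041 [0.00742], blocked adjusted p = 0.0564 and 0.0525). The members that fell beside Ccl20 were Cxcl1 (blocked adjusted p = 0.0695), Cxcl10, Cx3cl1, Il6 (blocked adjusted p = 0.0533) and Csf1. Cx3cl1, a membrane-bound chemokine, stood at 90.8, 91.0 and 91.3 CPM alone and at 56.1, 55.6 and 61.7 CPM with sgPrrx1 fibroblasts (adjusted p = 0.011 [0.000385]), and Csf1, the macrophage growth factor, at 791, 808 and 798 CPM and 576, 563 and 626 CPM (adjusted p = 0.027 [0.000382]). Among 15 NF-kB factors and feedback genes, Vcam1, an adhesion receptor for leukocytes, passed, with a log2 fold change of -0.56 [-0.44] (adjusted p = 0.037 [0.000814], blocked adjusted p = 0.0551). Under the replicate block 0 of the 15 passed, and without the third sgPrrx1 library 8 were lower, against 14.2% over all genes.

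Interferon-stimulated genes were lower in part. Of 39 tested, 7 were lower and 0 higher, against 2.31% and 2.01% over all genes. Without the third sgPrrx1 library 26 were lower and 1, Gbp2, higher, against 14.2% and 12.5%. Rsad2, an antiviral enzyme, was at 321, 317 and 311 CPM alone and at 219, 218 and 179 CPM with sgPrrx1 fibroblasts (log2 fold change -0.62 [-0.53], adjusted p = 0.0175 [0.000344]). Oas2, which makes the activator of an antiviral RNase, went from 43.1, 46.5 and 41.5 CPM to 30.5, 30.3 and 27.2 CPM (adjusted p = 0.0176 [0.000887]). Ifi44, Mx2, Irf1 and Irgm1 were also among the members that passed. The count was 4 under the block, where the calls of Ifi44, Mx2 and Irgm1 ended (blocked adjusted p = 0.0539, 0.0546 and 0.0686).

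Cell cycle genes that passed with all libraries were higher. Of 27 genes of the G1 to S phase transition, 4 were higher and 0 lower, and of 26 genes of G2 and mitosis, 4 were higher and 0 lower, against 2.01% and 2.31% over all genes. In the fit without the third sgPrrx1 library, the counts were 13 higher and 1 lower, and 10 higher and 1 lower, against 12.5% and 14.2%. Rrm2, the small subunit of ribonucleotide reductase, rose from 126, 123 and 125 CPM to 208, 217 and 177 CPM (log2 fold change 0.68 [0.77], adjusted p = 0.011 [6.67e-05]), and Ccne1, cyclin E1, from 28.1, 29.5 and 30.7 CPM to 53.7, 49.5 and 64.6 CPM (log2 fold change 0.93 [0.82], adjusted p = 0.0072 [0.000142]). Tyms and Fen1, which supply thymidylate and process Okazaki fragments, were the other G1 to S members. Ccnb1, cyclin B1, rose from 77.2, 79.8 and 79.6 CPM to 112, 112 and 105 CPM (log2 fold change 0.48 [0.51], adjusted p = 0.0183 [0.000256]), together with the mitotic kinase genes Plk1 and Aurka (blocked adjusted p = 0.0532 for Aurka) and the kinesin gene Kif20a. Mki67, a proliferation marker with a long transcript, was at 300.4, 333 and 228 CPM alone and 293, 295 and 129 CPM in coculture and did not pass in either fit. Of 17 p53 targets and cell cycle inhibitors tested, 1 was higher with all libraries, Cdkn2a, and without the third sgPrrx1 library 7 were higher and 4 lower, against the same shares over all genes. Cdkn2a had 0 counts alone, 23, 8 and 12 with sgPrrx1 and 139, 146 and 163 with WT fibroblasts. With all libraries it entered the test only through the WT libraries.

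Sterol and fatty acid genes were lower in the fit without the third sgPrrx1 library, with 19 of 34 lower and 1 higher, against 14.2% and 12.5% over all genes. With all libraries 4 were lower and 1 higher, against 2.31% and 2.01%. Those that passed with all libraries were Lss and Cyp51, enzymes of cholesterol synthesis, and the fatty acid desaturase genes Fads1 and Fads2, with log2 fold changes from -0.77 to -0.44 (blocked adjusted p = 0.0617 for Cyp51). Lss stood at 58.2, 63.3 and 54.1 CPM alone and at 40.5, 39.7 and 36.3 CPM with sgPrrx1 fibroblasts. Fdps, which makes farnesyl diphosphate, was at 148, 142 and 163 CPM alone and at 90.1, 95.3 and 227 CPM with sgPrrx1 fibroblasts, so that the third library lay on the other side of the cells grown alone from the other two. It passed without that library (log2 fold change -0.70, adjusted p = 0.00116) and not with it (adjusted p = 0.809). The member that rose was Acsbg1. In the list of ATF4 and endoplasmic reticulum stress genes, 2 of 28 were lower and 1 higher, and 9 lower and 1 higher without that library, against the same shares. Chac1 and Herpud1, which are induced by stress in the endoplasmic reticulum, had log2 fold changes of -0.89 [-1.08] (blocked adjusted p = 0.0563) and -0.42, and Calr, a chaperone of that compartment, rose from 1211, 1187 and 1265 CPM to 1719.8, 1696 and 2269 CPM (adjusted p = 0.0333 [0.000669]).

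Of 32 glycolysis and hypoxia genes, 2 were lower and 0 higher, against 2.31% and 2.01% over all genes, and without the third sgPrrx1 library 8 were lower and 4 higher, against 14.2% and 12.5% over all genes, so that 12.5% of the list was higher, the share over all genes. Bnip3, a mitochondrial protein induced by hypoxia, stood at 109, 106 and 112 CPM alone and at 78.9, 77.8 and 76.1 CPM with sgPrrx1 fibroblasts (log2 fold change -0.49 [-0.47], adjusted p = 0.0203 [0.00128]), and Ddit4, an inhibitor of mTORC1, was the other member that fell. Gapdh, Pgam1, Pkm and Ldha, enzymes of lower glycolysis, were the members higher without that library, with Ldha at 1239, 1175 and 1344 CPM alone and 1635, 1619 and 2286 CPM in coculture (adjusted p = 0.00384 in that fit).

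Of 36 TGF-beta and BMP pathway genes, 3 were higher and 2 lower, 1 passed under the block, and 7 were higher and 7 lower without the third sgPrrx1 library. The shares over all genes were 2.01% and 2.31% in the first fit and 12.5% and 14.2% in the other, so that the counts of 7 lay near the background. Among the ligands Inhba and Bmp2 rose (blocked adjusted p = 0.0813 for Bmp2). Bmp2 had 0 counts alone, 11, 14 and 2 with sgPrrx1 and 217, 196 and 238 with WT fibroblasts. It entered the test only through the WT libraries. Among the targets Id1, an inhibitor of differentiation, rose from 20.6, 20.2 and 22.4 CPM to 37.0, 34.5 and 59.9 CPM (log2 fold change 1.06 [0.77], adjusted p = 0.0298 [0.00056]). Among the latent TGF-beta binding proteins, which hold the ligand in the matrix, Ltbp3 fell from 372, 373 and 376 CPM to 256, 258 and 304 CPM (adjusted p = 0.0357 [0.000382], blocked adjusted p = 0.056) and Ltbp2 also fell (blocked adjusted p = 0.0563). Grem1, a secreted BMP antagonist, showed how far 1 library could set a result: it was at 66.3, 72.8 and 51.5 CPM alone and at 136, 134 and 29.5 CPM with sgPrrx1 fibroblasts, and passed without the third library (log2 fold change 1.10, adjusted p = 0.000669) but not with it (adjusted p = 0.423). Of 15 genes of the epithelial to mesenchymal transition tested of 21 listed 0 passed with all libraries, and without the third sgPrrx1 library, of 17, Snai2 and Prrx2 were lower and Twist2 and Cdh2 higher, with log2 fold changes from -0.41 to 0.34, so that the shares were no larger than the 14.2% and 12.5% over all genes. Of the genes on the study's quantitative PCR list, 0 of 6 tested of 10 listed passed with all libraries and 2 of 7 were higher without the third, against 12.5% over all genes, Adamts2 and Aldh1a3, both at 0 in the cells grown alone. Adamts2 lost that call when the block entered the same fit (adjusted p = 0.0877). It had 3, 7 and 0 counts with sgPrrx1 and 28, 20 and 20 with WT fibroblasts, and entered the test only through the WT libraries. Aldh1a3 was at least 8.31-fold higher with sgPrrx1 fibroblasts than a floor of 3 counts over the group of cells alone.

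**Figure D3:**
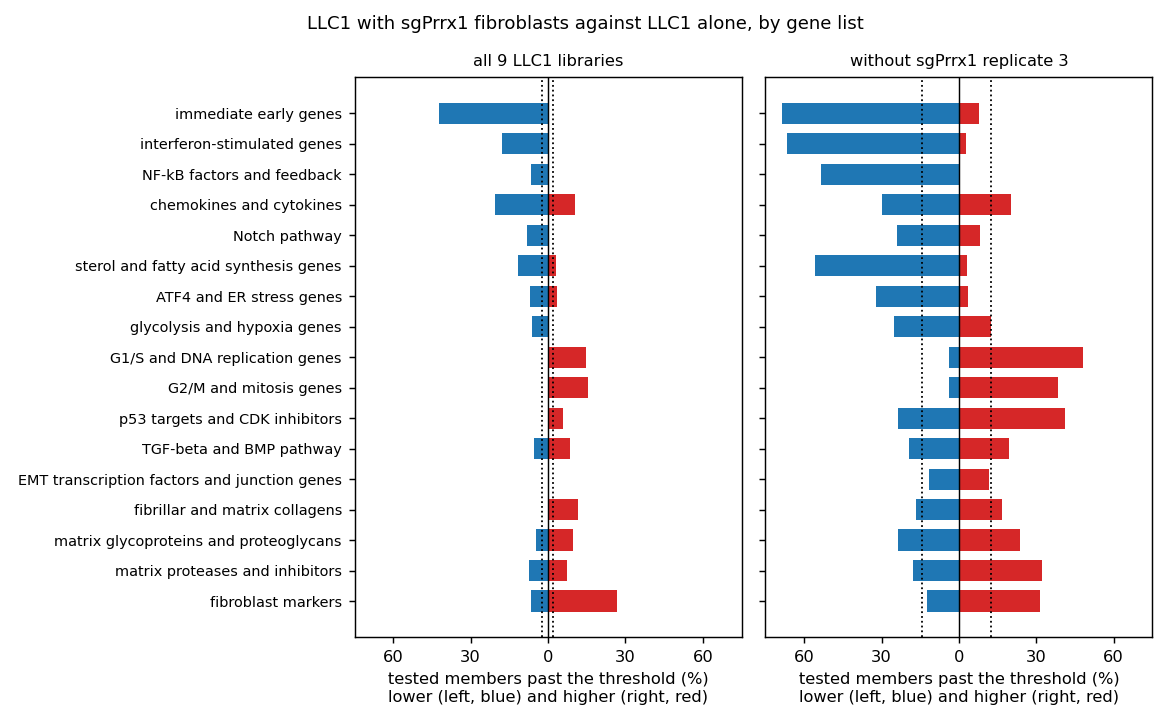
Percent of the tested members of each gene list that were lower (blue, to the left) or higher (red, to the right) in LLC1 cells with sgPrrx1 fibroblasts than alone, with all 9 LLC1 libraries in the left panel and without the third sgPrrx1 library in the right panel. Dotted lines give the percent over all genes tested, 2.31 lower and 2.01 higher on the left and 14.2 lower and 12.5 higher on the right.

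Matrix genes were counted in 3 lists. Of 17 collagens tested of 20 listed, 2 were higher with all libraries, against 2.01% over all genes, Col7a1 and Col1a2, and 1 under the block (blocked adjusted p = 0.0513 for Col1a2). Without the third sgPrrx1 library 3 of 18 were higher, with Col12a1, and 3 lower, Col16a1, Col4a1 and Col4a2, against 12.5% and 14.2% over all genes, so that the shares were near the background. Once a block for replicate number entered that fit, Col3a1 and Col8a1 were lower too (adjusted p = 0.0259 and 0.0186). Of 21 matrix glycoproteins and proteoglycans tested of 25 listed, Dcn and Fbln2 were higher and Lama5, a laminin chain of basement membranes, lower. Of 27 matrix proteases and their inhibitors tested of 29 listed, Plau, the urokinase gene, and Ctsl, a lysosomal cathepsin, were higher and the collagenase and gelatinase genes Mmp13 and Mmp9 lower, and 2 passed under the block (blocked adjusted p = 0.0537 for Plau and 0.0695 for Mmp9). Plau rose from 80.02, 82.1 and 84.1 CPM to 108, 113 and 104.1 CPM (log2 fold change 0.40 [0.44], adjusted p = 0.03 [0.000791]). With the third sgPrrx1 library left out, 9 of 28 were higher and 5 lower. Against the 12.5% higher and 14.2% lower over all genes, the lower share of the proteases lay near the background, and 5 of 21 glycoproteins passed in each direction.

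Markers of other cell types were examined because sorted cancer cells can carry other cells or their RNA, and in bulk libraries fewer cells of a type and less RNA per cell cannot be told apart. The summed level of 26 fibroblast markers was 2156 to 2272 CPM alone, 1711 to 1758 CPM with WT fibroblasts and 2010 to 2163 CPM with sgPrrx1 fibroblasts, so that it was not higher in coculture. The largest part of that sum came from genes that LLC1 cells grown alone also expressed, such as Col3a1. Thy1, Fap, Tcf21, Pi16, Mfap4 and Mfap5 were at 0 in all sgPrrx1 libraries. Other fibroblast markers with few counts were read there: Postn had 2 counts over the libraries of cells alone and 18 over the sgPrrx1 libraries (ratio 8.63, counting interval 2.07 to 76.7), and Tagln had 2 and 10 counts. Col6a3 had 0 and 14 counts, at least 4.48-fold above a floor of 3 counts over the group, and Cnn1 0 and 6, at least 1.92-fold. Of 15 fibroblast markers tested, Dpt, Col1a2, Dcn and Fbln2 were higher and Pdgfrb lower, against 2.01% and 2.31% over all genes, and without the third sgPrrx1 library 5 of 16 were higher and 2 lower, against 12.5% and 14.2% over all genes. The 9 leukocyte markers summed to 16.1 to 17.5 CPM alone, to 36.6 to 38.6 CPM with WT fibroblasts and to 36.7 to 65.0 CPM with sgPrrx1 fibroblasts. That sum was nearly all Cd68, a lysosomal protein, which rose from 15.8, 15.7 and 17.0 CPM to 38.5, 36.0 and 63.6 CPM (adjusted p = 0.0105 [2.89e-05]), 1 of 3 leukocyte markers tested. Adgre1, Itgam, Tyrobp and Cd3e, which define macrophages, myeloid cells and T cells, were at 0 in every library. Csf1r, a receptor of macrophages, had 0 counts alone and 22 in the sgPrrx1 libraries, at least 7.03-fold above a floor of 3 counts over the group. The 7 endothelial markers summed to 1.81 to 2.76 CPM alone, 7.55 to 10.0 CPM with WT fibroblasts and 1.64 to 3.20 CPM with sgPrrx1 fibroblasts, 0 of 2 passed with all libraries, and 1 was higher without the third. Kdr, the main receptor of vascular endothelial growth factor, had 3 counts in cells alone and 34 in the sgPrrx1 libraries, a ratio of 10.9 with a counting interval of 3.42 to 55.3, and Pecam1, an endothelial adhesion protein, had 0 and 34 counts, at least 10.9-fold above the floor. The 10 epithelial markers summed to at most 0.275 CPM alone, 0.767 to 0.782 CPM with WT fibroblasts and at most 0.258 CPM with sgPrrx1 fibroblasts, Epcam was at 0 in every library and 1 was tested and did not pass, so that the epithelial genes that mark most carcinomas were absent or near 0, whereas Vim, a mesenchymal filament, stood at 2922, 2873 and 3183 CPM alone. With sgPrrx1 fibroblasts the endothelial and epithelial sums, at most 10.0 and 0.782 CPM in any coculture, lay below those with WT fibroblasts. The fibroblast sum lay above that with WT fibroblasts, and the leukocyte ranges overlapped. The part of RNA from other cells in the results was not tested.

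Some genes had no count in LLC1 cells alone and were read in the cocultures. Of 9789 genes with 0 counts in every library of cells alone, 89 had at least 10 counts in every WT coculture library. These 89 were chosen by their WT counts, so their lower level with sgPrrx1 fibroblasts is a description. Of the 89, 7 had a count in every sgPrrx1 library and 3 had at least 10 there, Igfbp7, Cck and Cfap45. In 22 of the 89 the sgPrrx1 libraries held 0 counts, and in 36, those included, 3 counts or fewer in all. The median ratio of the sgPrrx1 to the WT mean was 0.0356, or 0.0470 with these 36 genes set to a floor of 3 counts over the sgPrrx1 libraries, and 88 of the 89 had the lower mean with sgPrrx1 fibroblasts. The reverse choice, genes at 0 alone with at least 10 counts in every sgPrrx1 library, held 4 genes, Cck, Igfbp7, Noxred1 and Cfap45.

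Within that set, Bmp2, a bone morphogenetic protein, was at 2.69, 2.60 and 3.20 CPM with WT and at 0.104, 0.164 and 0.0342 CPM with sgPrrx1 fibroblasts. Igfbp7, a secreted insulin-like growth factor binding protein, was at 2.92, 3.16 and 4.24 CPM and 0.151, 0.117 and 0.377 CPM. Cdkn2a, the gene of the cell cycle inhibitor p16 and of Arf, was at 1.73, 1.93 and 2.19 CPM and 0.217, 0.094 and 0.205 CPM. In each of these genes every sgPrrx1 library lay below every WT library and at or above the cells alone. Against a floor of 3 counts over the group of cells alone, Cdkn2a was at least 13.7-fold higher and Bmp2 at least 8.63-fold higher with sgPrrx1 fibroblasts. Dlk1, a Notch ligand that lacks the activating domain, had 3 counts alone and 37 in the sgPrrx1 libraries, a ratio of 11.8 with a counting interval of 3.75 to 60.0.

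**Figure D4:**
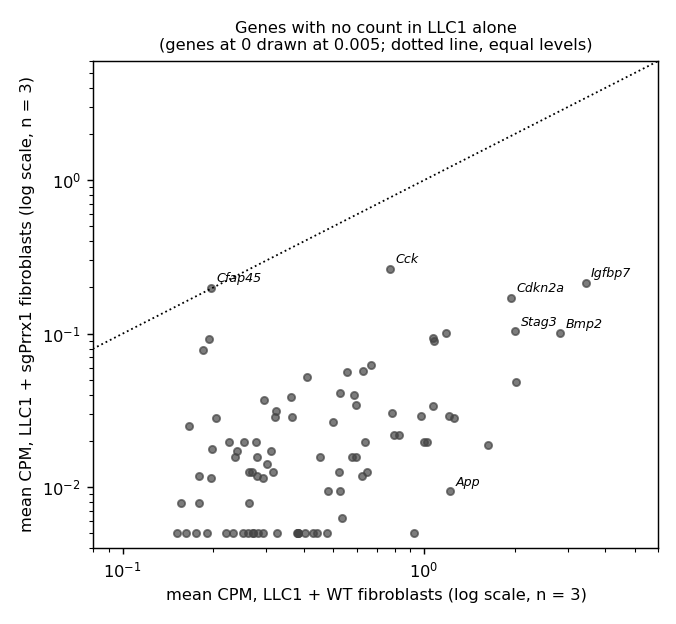
Mean CPM with WT fibroblasts (x axis) and with sgPrrx1 fibroblasts (y axis), both on log axes, for the 89 genes with 0 counts in every library of LLC1 cells alone and at least 10 counts in every WT coculture library. A mean of 0 is drawn at the lower edge and the dotted line marks equal levels, and 88 of the 89 points lie below it.

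Tested directly, the cocultures with sgPrrx1 and WT fibroblasts differed at 7 of 12873 genes with all libraries (0.0544%), 0 higher and 7 lower with sgPrrx1 fibroblasts. The 7 were Bgn, Bmp2, Col1a1, Col1a2, Fbln2, Pdpn and Tns1. With a block for replicate number in that fit, Bgn and Col1a2 kept this call (adjusted p = 0.0204 and 0.0482). Bmp2, Col1a1 and Fbln2 lost it (adjusted p = 0.354, 0.0644 and 0.166), as did Pdpn and Tns1. In the fit without the third sgPrrx1 library, 385 of 13088 genes were higher (2.94%) and 360 lower (2.75%), and of those that changed by at least 1 on the log2 scale 8 were higher and 106 lower. Both comparisons with cells alone shared the same 3 libraries of cells alone, so the levels of the 3 groups are given side by side.

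Col1a1 and Col1a2, which encode the chains of fibrillar collagen I, were among the 7. Col1a1 was at 0.524, 0.356 and 0.244 CPM alone, at 8.01, 10.6 and 7.20 CPM with WT fibroblasts and at 0.528, 0.693 and 0.822 CPM with sgPrrx1 fibroblasts. The sgPrrx1 libraries lay far below the WT libraries (log2 difference -3.67 [-3.83], SE 0.30 [0.29], adjusted p = 0.0054 [0.00119]), and the difference from cells alone did not pass (adjusted p = 0.15 [0.149]). Col1a2 was at 0, 0.0246 and 0.0642, 9.27, 8.55 and 8.22 and 0.311, 0.223 and 0.257 CPM in the same order of groups, lower with sgPrrx1 than with WT fibroblasts by 5.02 on the log2 scale (adjusted p = 0.00361 [0.000244]) and higher than alone (adjusted p = 0.023 [0.00409], blocked adjusted p = 0.0513). Bgn, the proteoglycan biglycan, was at 1.95, 2.16 and 1.99 CPM alone, 11.6, 13.3 and 12.3 CPM with WT fibroblasts and 2.04, 2.24 and 2.89 CPM with sgPrrx1 fibroblasts. Its difference between the cocultures was -2.38 [-2.54] (adjusted p = 0.0022 [2.47e-05]), and that from cells alone was 0.23 [0.08] (adjusted p = 0.37 [0.607]). Fbln2, an elastic fibre protein, was at 0, 0.0737 and 0.0257 CPM alone, 6.92, 5.22 and 6.11 CPM with WT and 0.669, 0.646 and 0.651 CPM with sgPrrx1 fibroblasts, so that the sgPrrx1 libraries lay between the other groups and differed from both (adjusted p = 0.00771 [0.000808] against cells alone and 0.0398 [0.00333] against WT).

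Pdpn, a membrane mucin found on activated fibroblasts and lymphatic vessels, was at 0.599, 0.651 and 0.783 CPM alone, 5.96, 4.41 and 5.69 CPM with WT and 0.905, 1.55 and 0.925 CPM with sgPrrx1 fibroblasts (difference between cocultures -2.24 [-2.14], adjusted p = 0.0376 [0.00794]). Tns1, a focal adhesion protein, was at 0.906, 1.22 and 1.16 CPM with WT and 0.066, 0.153 and 0.0856 CPM with sgPrrx1 fibroblasts (adjusted p = 0.0376 [0.0116]). Without the third sgPrrx1 library, Thbs1 and Lox passed too. Thbs1, a matrix glycoprotein that can activate latent TGF-beta, was at 1.42, 1.22 and 0.911 CPM alone, 35.8, 37.9 and 33.9 CPM with WT and 5.13, 4.38 and 1.06 CPM with sgPrrx1 fibroblasts. It was above the cells alone (log2 fold change 2.01, adjusted p = 0.000132) and below the WT cocultures (difference -2.92, adjusted p = 5.53e-05). With all libraries neither difference passed (adjusted p = 0.104 and 0.101). Lox, which cross-links collagen, was at 1.35, 1.46 and 1.47 CPM with WT and 0.188, 0.235 and 0 CPM with sgPrrx1 fibroblasts (difference -2.75, adjusted p = 0.00724 without the third library).

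Other matrix genes went the opposite way between the cocultures in the fit without the third sgPrrx1 library. Of 18 collagens, 8 were higher with sgPrrx1 than with WT fibroblasts and 3 lower, against 2.94% and 2.75% over all genes. Col3a1 stood at 1625, 1555 and 1557 CPM alone, 1087, 1081 and 1063 CPM with WT and 1457, 1457 and 1408 CPM with sgPrrx1 fibroblasts (difference between cocultures 0.43, adjusted p = 0.00303). Col6a1 and Col6a2, chains of the beaded filament collagen VI, were likewise higher with sgPrrx1 than with WT fibroblasts, with differences of 0.51 and 0.52 (adjusted p = 0.00794 and 0.00448). For these 3 genes the first and second sgPrrx1 libraries lay close to the cells alone, from which they did not differ at the threshold (log2 fold changes -0.11, -0.06 and 0.11). With a block for replicate number in that fit, Col3a1 was lower than in cells alone (log2 fold change -0.12, adjusted p = 0.0259). Dpt, dermatopontin, was at 10.1, 10.5 and 12.4 CPM alone, 13.7, 13.3 and 14.6 CPM with WT and 25.0, 26.0 and 40.0 CPM with sgPrrx1 fibroblasts, higher than with WT fibroblasts by 0.87 on the log2 scale (adjusted p = 0.00679). Of the 21 glycoproteins 3 were higher and 4 lower than with WT fibroblasts, and of the 28 proteases and inhibitors 5 were higher and 5 lower, against the same shares over all genes.

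**Figure D5:**
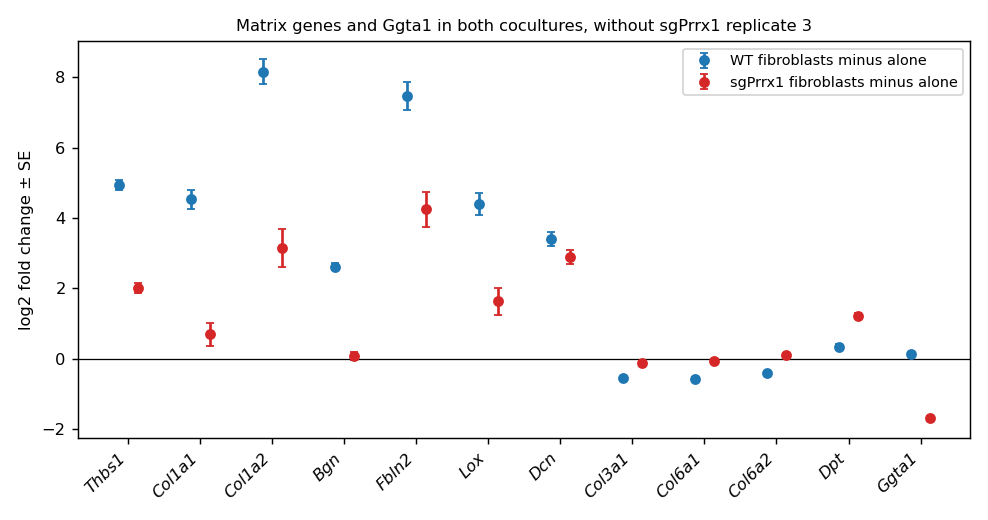
Log2 fold change against LLC1 cells alone, with its standard error, for 12 genes in cells with WT fibroblasts (blue) and with sgPrrx1 fibroblasts (red), from the fit without the third sgPrrx1 library. Thbs1 stands at 4.93 with WT and 2.01 with sgPrrx1 fibroblasts, and Ggta1 at 0.15 and -1.68.

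Ggta1, the enzyme that adds alpha-galactose to cell surface sugars, was at 90.4, 93.0 and 87.4 CPM alone, 99.1, 99.8 and 99.0 CPM with WT and 28.8, 27.2 and 77.5 CPM with sgPrrx1 fibroblasts. The first and second sgPrrx1 libraries lay well below every other library and the third close to the rest, so that the gene passed only without the third (log2 fold change from cells alone -1.68, adjusted p = 8.8e-07, difference from WT -1.83, adjusted p = 1.35e-06, and 0.143 and 0.314 with all libraries). Bend6 divided its libraries in a like way, at 33.0, 16.6 and 34.0 CPM alone, 22.6, 24.0 and 24.1 CPM with WT and 10.9, 9.52 and 25.3 CPM with sgPrrx1 fibroblasts. Besides Thbs1, Ggta1 and Bend6, the changes from cells alone named by rule that passed only without the third sgPrrx1 library were rises in Itga2, Sele, Inpp4b, Hhip and Fam131b and falls in Fcgr3, Stbd1, Fgf21 and Ank2. Itga2, a collagen-binding integrin subunit, was at 0.711, 0.344 and 0.449 CPM alone and 2.15, 1.997 and 0.223 CPM with sgPrrx1 fibroblasts (log2 fold change 2.05, adjusted p = 0.00207). Sele, the endothelial selectin gene, was at 0.774, 0.946 and 1.00 CPM and 2.69, 3.38 and 1.16 CPM (adjusted p = 0.000557). Fgf21, a secreted metabolic hormone, was at 1.82, 1.42 and 1.89 CPM alone and 0.584, 0.517 and 0.993 CPM in coculture (log2 fold change -1.62, adjusted p = 0.0035).

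Some members of the other lists also differed between the cocultures in the fit without the third sgPrrx1 library. Over all genes 2.94% were higher and 2.75% lower in that comparison. Of 38 immediate early genes 2 were higher and 5 lower with sgPrrx1 than with WT fibroblasts. Fos stood at 57.1, 54.7 and 53.4 CPM with WT fibroblasts and was higher with sgPrrx1 fibroblasts by 0.30 (adjusted p = 0.0275), and Fosb stood at 83.8, 83.8 and 84.5 CPM and was lower by 0.40 (adjusted p = 0.00794). Among 30 cytokines Cxcl5, Cx3cl1 and Csf1 were higher and Il33 lower. Csf1 was at 462, 458 and 442 CPM with WT fibroblasts, below both the sgPrrx1 cocultures and the cells alone (difference 0.32, adjusted p = 0.0153). Of 39 interferon-stimulated genes 1 was higher and 5 lower. Mx2, an antiviral GTPase, was at 15.5, 15.7 and 15.7 CPM alone, 14.6, 15.2 and 16.2 CPM with WT and 10.3, 10.0 and 12.8 CPM with sgPrrx1 fibroblasts (difference between cocultures -0.60, adjusted p = 0.00608). Bnip3 likewise was at 113, 107 and 120.0 CPM with WT fibroblasts, close to the cells alone, and lower with sgPrrx1 fibroblasts (difference -0.53, adjusted p = 0.00724).

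Of 34 sterol and fatty acid genes 7 were higher with sgPrrx1 than with WT fibroblasts and 1 lower. Fasn, the fatty acid synthase, was at 252, 262 and 224 CPM alone, 202, 228 and 177 CPM with WT and 302, 302 and 223 CPM with sgPrrx1 fibroblasts (difference between cocultures 0.57, adjusted p = 0.0317). The remaining counts in that fit, higher then lower, were 3 and 3 of 36 for the TGF-beta and BMP pathway, 3 and 3 of 16 for fibroblast markers, 2 and 0 of 15 for the NF-kB list and 2 and 0 of 25 for the Notch list. They were 0 and 3 of 17 for p53 targets, 0 and 3 of 32 for glycolysis and hypoxia, 0 and 1 of 28 for the ATF4 list, 0 and 1 of 17 for the epithelial to mesenchymal list, 0 and 1 of 2 for the endothelial list and 1 and 0 of 7 for the quantitative PCR list. Over all genes 2.94% were higher and 2.75% lower, so that many of these counts stand for 1 to 3 genes and some lie near the background. In both cell cycle lists and in the proliferin list 0 passed. Over all 12873 genes, 32.4% had CPM values that did not overlap between the 3 sgPrrx1 libraries and the 3 libraries of cells alone, so that non-overlap by itself marked many genes that did not pass. Cells with WT fibroblasts also differed from cells alone. Without the third sgPrrx1 library 25 of 34 sterol and fatty acid genes were lower and 2 higher, against 2899 and 2880 of 13088 genes. With all libraries 17 of 38 immediate early genes were lower and 2 higher, and 5 of 39 interferon-stimulated genes lower and 1 higher. Over all genes 590 of 12873 were lower and 547 higher.

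The response of LLC1 cells to sgPrrx1 fibroblasts was also set against that of 168FARN cells, a mouse breast cancer line, to sgPrrx1 fibroblasts from MMTV-PyMT mammary tumours. Cell line and kind of fibroblast cannot be told apart in this contrast. In a joint fit of the 18 libraries the response differed at 1742 of 14369 genes (12.1%), and without the third sgPrrx1 library at 4096 of 14644 (28%). Values in brackets are again from the fit without that library. Angptl4 rose by 3.41 on the log2 scale in LLC1 cells in that fit and had a value of 0.58 in 168FARN cells (difference 2.83 [2.59], adjusted p = 1.81e-07 [4.70e-11]). Hes1 fell by 2.12 in LLC1 cells and had a value of 0.19 in 168FARN cells (difference -2.31 [-2.30], adjusted p = 1.16e-07 [4.63e-08]). Prl2c2 was closer between the lines, at 2.97 and 2.43 (difference 0.55 [0.49], adjusted p = 0.0488 [0.0268]).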

How the data were processed

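RNA of GFP-sorted LLC1 cells was sequenced as 100 bp paired ends, and the authors deposited a table of whole-number counts per gene for 24532 genes. The submitters' processing notes name Trimmomatic, STAR, HTSeq and mm10. The study's methods also name a batch correction with ComBat-seq after counting, and do not say whether the deposited table precedes or follows it. Whether counting used strand, and how reads shared by gene copies were treated, is not given in the sources used here. Counts totalled 66129117 to 103997557 per library. The deposited table held 27 gene symbols turned into dates, and 61 genes with the same count above 0 in all 9 LLC1 libraries, none of which was tested.

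Groups came from the labels. The 9 LLC1 libraries were fitted together in edgeR 4.0.16 (R 4.3.3) with filterByExpr, TMM scaling and the quasi-likelihood test, at a Benjamini-Hochberg adjusted p of 0.05, and refitted without the third sgPrrx1 library. Scripts were tested on simulated data. There the fit of 9 libraries recovered 0% of changes of 0.5 on the log2 scale and 18% of changes of 1. The fit of 8 libraries recovered 47% and 96%. A gene that did not pass with all 9 libraries may therefore still differ. The members and 22 gene lists were chosen with earlier results of these data known. Genes are named by rule: the 14 largest called changes each way in genes whose counts in the 6 libraries averaged 100 or more, then the 6 largest each way called only without the third sgPrrx1 library. Other genes named are mostly list members or the 7 that differed between cocultures. Genes named for having 0 counts alone, and those under other observations, were chosen after their values were seen. A few list members are counted but not reported here by name. A floor is 3 counts over a group, and intervals and floors cover counting error only. Transcript length and GC content were those of each symbol's longest coding transcript, matched for 86.8% of tested and 88.7% of called genes. Alternatives were DESeq2 1.42.0, RLE scaling or none, other filters, limma 3.58.1 with sample weights, an offset for length and GC content, 6 libraries only, a replicate block and leaving out each library.

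Replicate numbers are shared by the labels of the groups. The deviations of same-numbered alone and sgPrrx1 libraries from their group means correlated at 0.131, 0.249 and 0.419. All lay above a limit of 0.1 set for this check. However, number 1 matched best with number 2, whereas numbers 2 and 3 matched best with their own. Deviations also ran with transcript length in the same direction within each pair (Spearman's rho 0.469 and 0.644, 0.537 and 0.648, -0.647 and -0.669). The check therefore cannot tell pairing from a shared length trend, and pairing was not settled. Blocked values against cells alone, from the fit of all LLC1 libraries, stand beside the named calls that the block ended. The WT and sgPrrx1 pairs gave -0.00184, 0.242 and 0.111, so that only the first lay below that limit. Pairing was thus not settled for these either. The block's effect on the comparison of cocultures is given with its calls and with the alternatives.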

Additional observations from a re-analysis of the deposited data

Results flagged for a closer look

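The response to sgPrrx1 fibroblasts differed between LLC1 and 168FARN cells, by the interaction term of the joint fit of 18 libraries, at 1742 genes, of which 782 had the higher response in LLC1 cells and 960 the lower. Without the third sgPrrx1 library it differed at 4096 genes, 2069 higher and 2027 lower. Values in brackets are from that fit. The 2 lines met different fibroblasts, wound fibroblasts and those of MMTV-PyMT tumours, so line and fibroblast cannot be told apart. Of the 8 named genes taken into that contrast, 7 differed. The difference in log2 fold change, LLC1 minus 168FARN, was 3.00 [2.92] for Acsbg1 (4.86 against 1.86, adjusted p = 1.17e-05 [3.31e-06]), 2.83 [2.59] for Angptl4 and 0.55 [0.49] for Prl2c2. It was -2.31 [-2.30] for Hes1, -1.17 [-1.12] for Ccl20 (-1.89 against -0.72, adjusted p = 0.0086 [0.00375]) and -2.12 [-1.95] for Fosb (-1.69 against 0.43, adjusted p = 3.45e-07 [8.34e-12]). For Prl2c4 the fitted difference was 17.17 [17.14], which is no measure of size: its level in 168FARN cells alone was 17.0 CPM with an SD of 29.4 (n = 3), so that 1 high library sets the 168FARN value of -8.15, and the cocultures were near 0. Btn1a1 did not differ at the threshold (-1.39 [-1.11], adjusted p = 0.178 [0.177]).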

How the results depend on the processing

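The count of genes that differed from cells alone, 556 with all 9 LLC1 libraries, moved strongly with the libraries that entered: it ranged from 52 to 3495 when 1 library was left out, and was 27 with the 6 libraries of the comparison alone. DESeq2 gave 1944, an offset for length and GC content 2016, and limma with sample weights, which gave the third sgPrrx1 library a weight of 0.0247, gave 6183. A minimum change of 1 on the log2 scale left 119. Other scalings and filters gave 378 to 700. With the replicate number as a block 381 genes passed, of which 341 were among the 556. The cause of each shift was not tested. List counts with a block were 1 for Notch, 1 for collagens, 2 for proteases, 0 for NF-kB, 4 for interferon-stimulated genes and 1 for TGF-beta and BMP genes, and of the 28 called genes named for their size of change the block ended the calls of Prss22 and Inhba. It also ended calls among the list members, whose p-values with the block stand beside them. With 6 libraries only, 14 of those 28 genes lost their call.

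The count of differences from WT cocultures, 7 with all libraries, was 501 with DESeq2, 4681 with sample weights, 32 with the length and GC offset, 11 with 6 libraries only, 2 with at least 10 counts in every library and 2 with the block, and 3 to 745 when a library was left out. The block ended the calls of Bmp2, Col1a1, Fbln2, Pdpn and Tns1 (adjusted p = 0.354, 0.0644, 0.166, 0.166 and 0.166). The median log2 difference over all genes tested was 0.11 with the offset, over 11175 genes, and 0.020 without it. The check used did not settle whether replicate numbers pair the WT and sgPrrx1 libraries.

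The fit that drops the third sgPrrx1 library was added once the data had been seen, and in it 3495 genes differed from cells alone. These became 244 with a minimum change of 1 on the log2 scale and 6670 with sample weights, and other settings gave 3242 to 4673, the block among them with 4435. The 745 genes that then differed from WT cocultures became 2284 with DESeq2, 5286 with sample weights, 413 with no filter, 1391 with the block and 114 with a minimum change of 1. With the length and GC offset 65.8% of the calls were higher, against 51.7% without it. The difference from 168FARN cells, 1742 genes, was 2615 with DESeq2 and 4096 without the third sgPrrx1 library, and 1713 with the block. The direction of Prrx1 turned, to 0.17 with the offset and 0.034 without the third sgPrrx1 library, and neither value passed the test (adjusted p = 0.434 and 0.814). When single libraries were left out, it ranged from -0.37 to 0.034. Depth limits genes with few counts, and the ratios over the 89 genes at 0 counts alone carry no counting interval.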

Other observations

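A few genes took clearly separate levels in libraries of the same group, in patterns that did not follow the groups. They were chosen after their values were seen, and the values carry no test here. Whether the counting step was the same for all libraries is not given in the sources used here, which limits what these levels mean. Tnfaip1, an adaptor of a ubiquitin ligase, stood at 97.5, 94.6 and 91.8 CPM alone, at 42.0, 108 and 103 CPM with WT fibroblasts and at 42.6, 44.4 and 109 CPM with sgPrrx1 fibroblasts. Sparc, a matricellular protein, stood at 155, 175 and 153 CPM alone, at 343, 168 and 336 CPM with WT and at 156, 341 and 168 CPM with sgPrrx1 fibroblasts, so that its libraries lay near either of a pair of levels. Serpinh1, the collagen chaperone HSP47, stood at 484, 483 and 1025 CPM alone, at 417, 829 and 843 CPM with WT and at 447, 433 and 1129 CPM with sgPrrx1 fibroblasts, the third library being the highest of each group. Jund, an AP-1 gene, stood at 0.900 CPM in the second WT library and between 192 and 304 CPM in the other 8 libraries. Acvr1, a BMP receptor, stood at 37.0, 34.7 and 20.8 CPM alone, at 39.9, 21.4 and 20.0 CPM with WT and at 23.7, 42.9 and 28.6 CPM with sgPrrx1 fibroblasts. Acsl4, an acyl-CoA synthetase of arachidonic acid, ranged from 85.4 to 142 CPM alone and from 47.3 to 126 CPM with sgPrrx1 fibroblasts.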
